A study of Mus musculus with 30 samples.

Results

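Myeloid C-type lectin receptors were followed here as 6 named genes, Clec4n, Clec4d, Clec4e, Clec7a, Clec10a and Cd209a, out of 18194 genes measured on 30 whole-genome mouse arrays. They were chosen by symbol, and each is given by the probe set that carries its symbol alone and has the highest mean over all arrays. CD11b+ cells were enriched with magnetic beads in 10 groups of 3 arrays. Healthy spleen came from BALB/c and from C57BL/6 mice. From BALB/c mice the groups were also the spleen and the tumor infiltrate of mice bearing C26-GM, named in the labels as a GM-CSF tumor, the infiltrate of 4T1 mammary tumors, fresh bone marrow, and marrow cultured over 4 days in GM-CSF+IL-6 or in GM-CSF+G-CSF. From C57BL/6 mice they were the infiltrates of EL-4 lymphoma and MCA203 fibrosarcoma. Ages, sexes and the number of animals behind an array are not given in the sources used here, so p-values measure the spread between these arrays, which may be technical. The study's reference was healthy spleen of the same strain for tumor-bearing mice and fresh marrow for the cultures. The infiltrates had spleen and no other healthy tissue as reference, so tumor and organ cannot be told apart in the infiltrates.

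C-type lectin receptors are surface proteins with which myeloid cells bind carbohydrates and lipids of microbes, dead cells and other cells. Clec4n (Dectin-2), Clec4d (MCL) and Clec4e (Mincle) signal through the Fc receptor gamma chain, Fcer1g, whereas Clec7a (Dectin-1), the receptor for beta-glucans, carries its own tyrosine motif. All 4 lead to the kinase Syk, to the adaptor Card9 and to NF-kB. Clec10a (MGL1), which binds galactose-type sugars, and Cd209a, a mouse relative of human DC-SIGN, are taken as receptors for uptake and adhesion, and are known from macrophages and dendritic cells.

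Expression is given as the deposited log2 RMA value, so a difference of 1 is a 2-fold change. A gene was called changed at a limma adjusted p below 0.05 over all 18194 genes together with at least a 2-fold change, and "rose" and "fell" are kept for such calls. Standard errors come from 1 fit of all 30 arrays. Because the cells were measured in bulk, fewer cells of a type and less RNA per cell cannot be told apart. The CD11b gene Itgam and its partner Itgb2 were called in no comparison. Against healthy spleen Itgb2 was lower, under 2-fold, in C26-GM tumors (-0.85, adjusted p = 0.000654) and 4T1 tumors (-0.81, adjusted p = 0.000921). With arrays centred on housekeeping genes, the 4T1 value of Itgb2 was called at -1.10. H2-Ea, which C57BL/6 mice do not make, lay between 9.35 and 13.05 on the 21 BALB/c arrays and between 6.23 and 7.34 on the 9 C57BL/6 arrays, among them the healthy C57BL/6 spleens, whose source field names BALB/c. Xist, made from the inactive X chromosome of females, read 5.15 to 6.47 in the 6 samples of C26-GM mice, whereas the other 24 read 10.06 to 11.12, so sex and tumor cannot be told apart in comparisons of C26-GM with other groups. In the cultures 4 arrays had a narrower spread of all values than the other 26 (SD 1.96 to 1.98, against 2.06 to 2.28), namely GM-CSF+IL-6 replicates 1 and 2 and GM-CSF+G-CSF replicates 1 and 3. The third arrays of the C26-GM spleen and tumor stood apart from the others of their groups (lowest correlation within a group 0.973 and 0.960), and results are given without them where this matters.

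**Figure D1:**
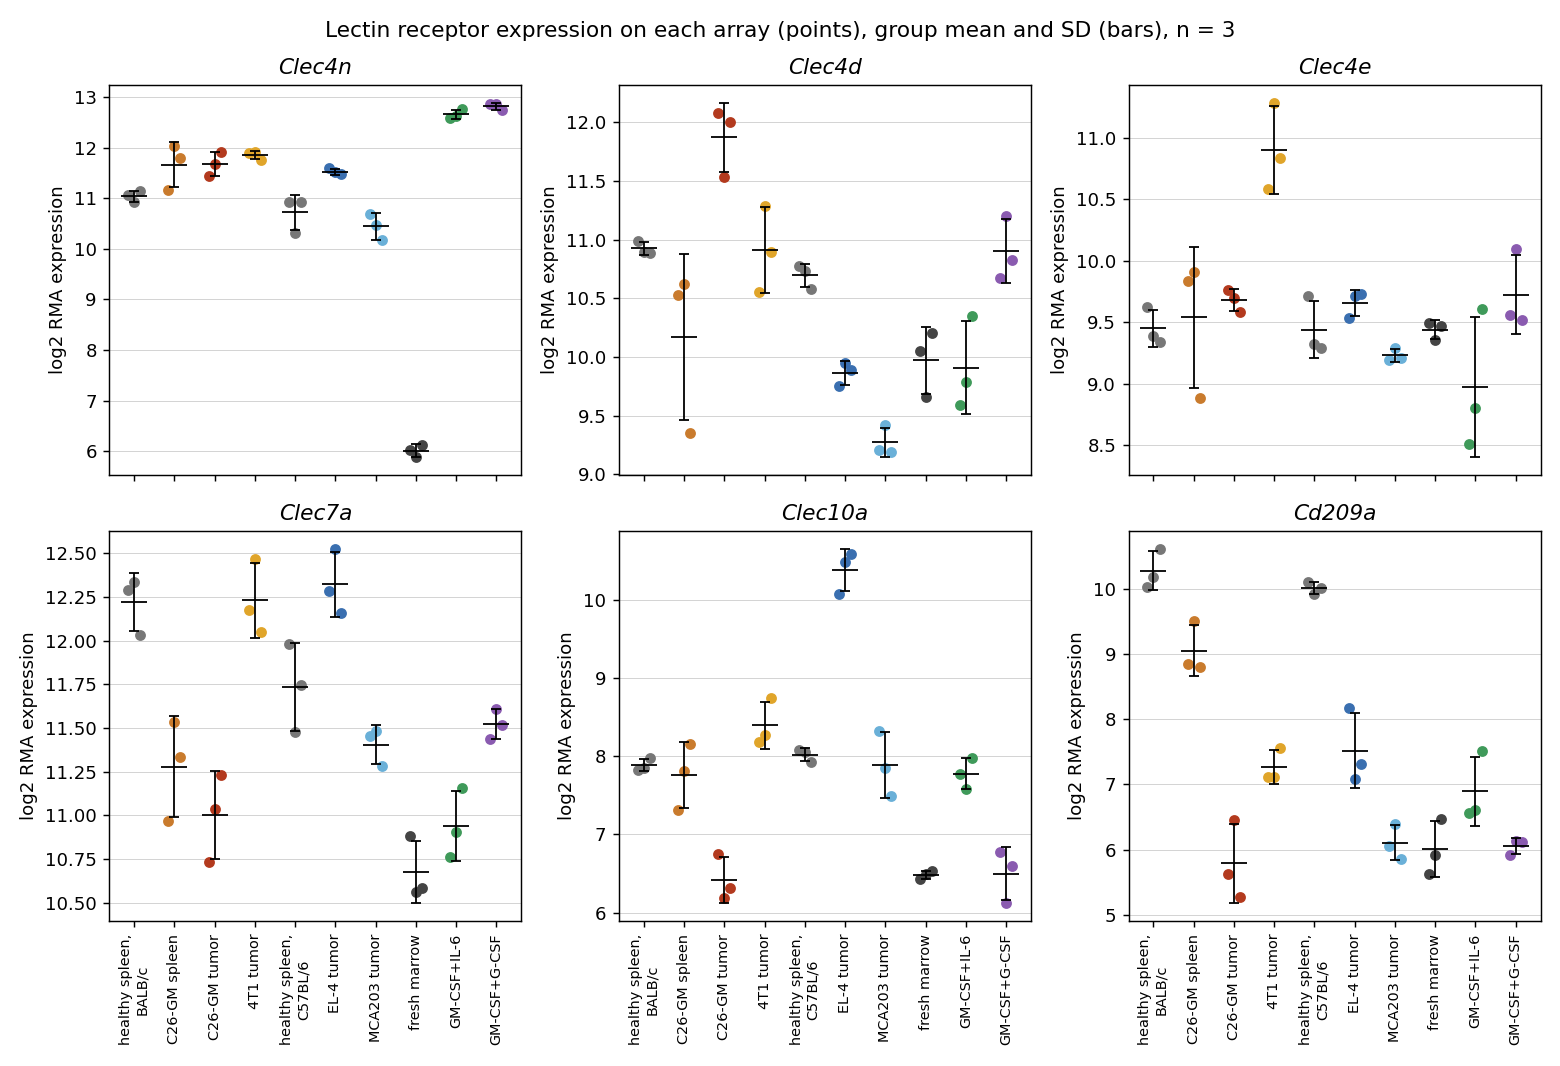
Log2 expression of the 6 lectin genes on all 30 arrays, 1 panel a gene. The x axis gives the 10 groups, points are single arrays, and bars show the mean and SD of 3 arrays. The fresh marrow points of Clec4n lie near 6, far under all its other groups, and the healthy spleens are the highest groups for Cd209a.

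The 6 genes did not follow a common pattern over the groups. The range of the group means was 6.80 for Clec4n, 4.49 for Cd209a, 3.96 for Clec10a, 2.60 for Clec4d, 1.93 for Clec4e and 1.65 for Clec7a. The pooled SD within groups was 0.20 to 0.40 for these genes. Over the 10 group means the highest correlation between 2 members was 0.72, for Clec7a and Clec10a, and the lowest was -0.40, for Clec4d and Clec10a. The neighbours Clec4d and Clec4e gave 0.43. These are descriptions over 10 points that share arrays and scaling.

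Clec4n, which recognises mannose-rich structures of fungi, was lowest in fresh marrow and highest after 4 days of culture. The 3 marrow arrays read 5.89, 6.03 and 6.13. The GM-CSF+IL-6 arrays read 12.58, 12.63 and 12.76, and the GM-CSF+G-CSF arrays 12.73, 12.85 and 12.86. All 6 culture arrays lay above every other array of the series, and all 3 marrow arrays below. Clec4n rose in culture by 6.64 ± 0.19 (SE) with IL-6 (99.6-fold, adjusted p = 1.18e-19) and by 6.80 ± 0.19 with G-CSF (111-fold, adjusted p = 6.48e-20). Against healthy BALB/c spleen, at 10.92 to 11.14, fresh marrow was lower (log2 change -5.02 ± 0.19, 32.5-fold, adjusted p = 1.37e-16). Clec4n in marrow lay at percentile 54 of all genes, and whether background limits these folds was not tested. The culture pair differed by -0.16 with a 95% interval of -0.54 to 0.22.

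The second probe set of Clec4n gave the same picture. It read 4.81 to 5.10 in marrow, 11.81 to 12.09 with IL-6 and 12.18 to 12.27 with G-CSF. Its changes were 6.93 and 7.24 in the cultures and -5.41 for marrow against spleen. The chosen set has an ending (_s_at) that marks probes shared between transcripts, and the second set (_a_at) marks transcripts of 1 gene. With the narrow culture arrays alone the rises were 6.59 and 6.78, and with the wide ones alone 6.74 and 6.84.

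**Figure D2:**
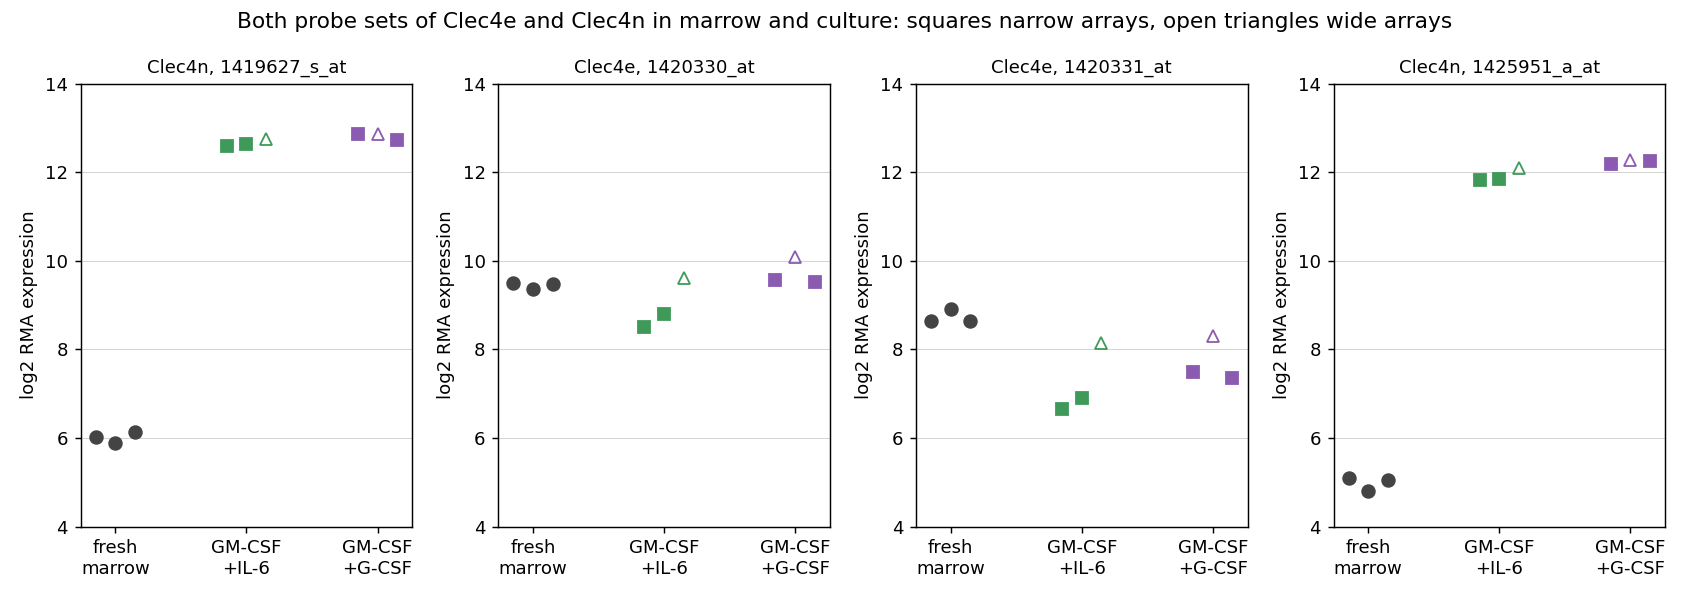
Log2 expression of both probe sets of Clec4n and of Clec4e in fresh marrow and in the 2 cultures. The x axis gives the group, circles are marrow arrays, and squares and open triangles are culture arrays with a narrow and a wide spread of all values. Both Clec4n probe sets rise by over 6 in culture, whereas the Clec4e probe sets differ in the sign of their change with GM-CSF+G-CSF.

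In the other groups Clec4n stayed within a narrower band. The means ran from 11.85 ± 0.09 (SD, n = 3) in 4T1 tumors over 11.67 ± 0.24 in C26-GM tumors, 11.66 ± 0.45 in C26-GM spleen and 11.52 ± 0.06 in EL-4 tumors to 11.04 ± 0.11 and 10.72 ± 0.35 in healthy BALB/c and C57BL/6 spleen and 10.44 ± 0.26 in MCA203 tumors. Of the 9 neighbouring pairs in the full order, 2 were apart with adjusted p below 0.05 and without overlap. They were GM-CSF+IL-6 culture over 4T1 (0.80) and MCA203 over marrow (4.43). In these pairs 55.2% and 35% of all genes had adjusted p below 0.05. Against healthy spleen the values of 0.63, 0.64, 0.82 and 0.80 for C26-GM spleen, C26-GM tumor, 4T1 and EL-4 had adjusted p of 0.0209, 0.0108, 0.00125 and 0.00158 but stayed under 2-fold, and MCA203 gave -0.28 (adjusted p = 0.318). Without the third C26-GM arrays the adjusted p was 0.0677 for C26-GM spleen and 0.0738 for C26-GM tumor, and the second probe set gave 0.34 and 0.32 there. Under housekeeping centring C26-GM spleen gave 0.48 (adjusted p = 0.106), EL-4 0.43 (adjusted p = 0.0841) and MCA203 -0.58 (adjusted p = 0.028). EL-4 tumors exceeded MCA203 tumors, where Clec4n rose by 1.08 ± 0.19 (adjusted p = 0.000145). Without the third MCA203 array this difference was 0.94 and with array weights 0.97, both under 2-fold.

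Clec4d, a low-affinity receptor for mycobacterial glycolipid that pairs with Clec4e, was highest in C26-GM tumors. These arrays read 12.08, 11.54 and 12.01, above all 27 other arrays. Healthy BALB/c spleen followed at 10.89 to 10.99 and 4T1 at 10.55 to 11.28. C26-GM tumors exceeded the healthy spleen by 0.95 ± 0.25 (adjusted p = 0.00552), which is just under 2-fold, and by 1.12 without the second tumor array. From the C26-GM spleen to the C26-GM tumor Clec4d rose by 1.70 ± 0.25 (3.26-fold, adjusted p = 1.88e-05). The spleen arrays read 10.53, 10.63 and 9.35, and without the third arrays of both groups the rise was 1.23. The C26-GM spleen itself gave -0.76 against healthy spleen (adjusted p = 0.0436), and -0.35 without those arrays (adjusted p = 0.406). In MCA203 tumors, at 9.19 to 9.42 and thus the lowest group, Clec4d fell by 1.42 against healthy C57BL/6 spleen at 10.58 to 10.77 (log2 change -1.42 ± 0.25, adjusted p = 9.26e-05). EL-4 tumors, at 9.75 to 9.95, gave -0.83 (adjusted p = 0.0149) and -1.20 when arrays were centred on housekeeping genes. The 4T1 tumors differed from healthy spleen by -0.02.

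Among neighbours in the order of Clec4d, only C26-GM tumor over healthy BALB/c spleen was apart by the same criteria, 1 of 9 pairs. In that pair 27.6% of all genes had adjusted p below 0.05. The G-CSF arrays lay above all IL-6 and marrow arrays. Marrow read 9.66 to 10.21, the IL-6 arrays 9.59 to 10.35 and the G-CSF arrays 10.67 to 11.20. The values against marrow were -0.06 with IL-6 and 0.93 with G-CSF (adjusted p = 0.00541), and the cultures differed by -0.99 ± 0.25 (adjusted p = 0.0476), all under 2-fold. Without the third IL-6 array the cultures differed by -1.21 for Clec4d and by -1.07 for Clec4e, both past 2-fold. The G-CSF value passed at 1.30 with a term for the culture array set. It also passed with the wide arrays alone (1.23), and at 1.05 and 1.04 without the third marrow or the first G-CSF array. The only probe set of Clec4d is shared between transcripts by its ending (_s_at).

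Clec4e, an inducible receptor for mycobacterial cord factor and for a ribonucleoprotein of dead cells, stood out in 4T1 tumors. The 3 arrays read 10.58, 11.29 and 10.84, and every other array of the series lay at 10.09 or below. Clec4e rose by 1.45 ± 0.24 against healthy BALB/c spleen at 9.34 to 9.62 (2.73-fold, adjusted p = 3.73e-05). It also exceeded C26-GM tumors, at 9.58 to 9.76, by 1.22 ± 0.24 (adjusted p = 0.000301, and 0.94 under housekeeping centring). The second probe set gave 1.87 and 2.02 for these differences. Of 9 neighbouring pairs 8 overlapped, from GM-CSF+G-CSF culture at 9.73 ± 0.32 down to GM-CSF+IL-6 culture at 8.98 ± 0.57. Only 4T1 over GM-CSF+G-CSF culture was apart (1.18, adjusted p = 0.000369), where 56.3% of all genes had adjusted p below 0.05.

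The other tumor-bearing groups gave 0.09 (C26-GM spleen), 0.23 (C26-GM tumor), 0.22 (EL-4) and -0.21 (MCA203), none of them called. The second set gave -0.48, -0.15, 0.87 and 0.49 (SE 0.34), of the opposite sign in all but EL-4. In the cultures the probe sets disagreed as well. The chosen set gave -0.47 with IL-6 and 0.28 with G-CSF against marrow, neither called. The second set, at 8.64 to 8.92 in marrow, 6.64 to 8.14 with IL-6 and 7.36 to 8.30 with G-CSF, gave -1.51 ± 0.34 and -1.02 ± 0.34. On both sets the array with the wide spread was the highest of its culture.

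Clec4n, Clec4d and Clec4e are neighbours in this order on chromosome 6, and the RefSeq promoters of build GRCm38.p6 matched 4 of the 6 members, Clec4d, Clec4e, Clec7a and Cd209a. Each sequence holds 300 bases, 5′ to 3′, that end 50 bases past the annotated start, Clec4d at chr6:123261857-123262156 on the plus strand and Clec4e at chr6:123289822-123290121 on the minus strand. They are shown because the 2 genes lie side by side and yet peaked in different tumors. Capitals mark matches to the myeloid factor motif PU.1 (GAGGAA) and to C/EBP (TTGCNNAA), searched on both strands.

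Clec4d: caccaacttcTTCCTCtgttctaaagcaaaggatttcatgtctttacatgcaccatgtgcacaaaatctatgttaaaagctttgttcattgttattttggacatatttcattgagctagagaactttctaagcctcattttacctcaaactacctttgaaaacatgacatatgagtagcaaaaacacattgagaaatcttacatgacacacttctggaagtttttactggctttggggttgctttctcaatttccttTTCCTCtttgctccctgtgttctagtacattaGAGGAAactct
Clec4e: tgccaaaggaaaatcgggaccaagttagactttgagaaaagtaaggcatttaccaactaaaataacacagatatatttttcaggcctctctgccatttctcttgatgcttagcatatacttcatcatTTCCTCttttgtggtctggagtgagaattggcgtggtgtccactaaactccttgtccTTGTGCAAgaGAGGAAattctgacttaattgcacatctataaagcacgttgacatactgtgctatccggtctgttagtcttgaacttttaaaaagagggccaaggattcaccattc

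Clec4d had 3 PU.1 matches and Clec4e had 2, with 1 C/EBP match besides, TTGTGCAA read on the minus strand at bases -66 to -59 from the start. The matches did not overlap each other. Such letters are common, since 28.3% of all 32851 promoters of this length held the PU.1 letters and 10.8% the C/EBP letters. Neither promoter held the letters searched for AP-1 (TGANTCA), STAT (TTCNNNGAA) or NF-kB, which 7.81%, 8.3% and 1.47% of promoters held.

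Clec7a, the beta-glucan receptor, varied least of the 6. It was high in EL-4 tumors (12.16 to 12.53), 4T1 tumors (12.05 to 12.47) and healthy BALB/c spleen (12.03 to 12.34), and lowest in fresh marrow (10.56 to 10.88). No pair of neighbours in its order was apart by the criteria above. Clec7a fell in C26-GM tumors, at 10.73, 11.04 and 11.23, by 1.22 against healthy BALB/c spleen (log2 change -1.22 ± 0.17, adjusted p = 3.43e-06). In C26-GM spleen, at 10.97, 11.54 and 11.33, the value was -0.94 ± 0.17 (adjusted p = 0.000254). It passed 2-fold at -1.04 without the third healthy array and at -1.07 without the second C26-GM spleen array, and at -1.09 under housekeeping centring. All 6 C26-GM arrays lay below all 3 healthy BALB/c arrays.

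In 4T1 tumors Clec7a differed from healthy spleen by 0.01 with an interval of -0.34 to 0.36, and it rose by 1.23 ± 0.17 over C26-GM tumors (adjusted p = 3.30e-06, and 0.95 under housekeeping centring). EL-4 and MCA203 tumors gave 0.59 (adjusted p = 0.0119) and -0.33 (adjusted p = 0.185) against healthy C57BL/6 spleen, and 0.22 (adjusted p = 0.334) and -0.63 (adjusted p = 0.00936) under housekeeping centring. Marrow was lower than healthy BALB/c spleen (log2 change -1.55 ± 0.17, adjusted p = 6.03e-08). The cultures gave 0.27 with IL-6 and 0.85 with G-CSF, where the second had adjusted p = 0.000365 and 1.80-fold.

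Clec10a, a marker of macrophages and dendritic cells that binds galactose-type sugars, was highest in EL-4 tumors. The arrays read 10.08, 10.48 and 10.58, whereas the highest array outside this group was a 4T1 array at 8.74. Clec10a rose in EL-4 tumors by 2.36 ± 0.22 against healthy C57BL/6 spleen at 7.93 to 8.07 (5.13-fold, adjusted p = 4.15e-09). It exceeded MCA203 tumors, at 7.49 to 8.32, by 2.49 ± 0.22 (adjusted p = 5.01e-09). MCA203 tumors differed from the healthy spleen by -0.13, with an interval of -0.58 to 0.32. Of the 9 neighbouring pairs of Clec10a 2 were apart. They were EL-4 over 4T1 (1.98, adjusted p = 1.32e-07) and C26-GM spleen over GM-CSF+G-CSF culture (1.26, adjusted p = 8.23e-05). In these pairs 16.7% and 36.2% of all genes had adjusted p below 0.05.

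C26-GM tumors had the lowest mean of Clec10a. They read 6.75, 6.19 and 6.31, against 7.83 to 7.97 in healthy BALB/c spleen, and the gene fell by 1.47 (log2 change -1.47 ± 0.22, adjusted p = 8.28e-06). The C26-GM spleen, at 7.31 to 8.16, overlapped the healthy spleen (-0.12), and the tumor was lower than this spleen by 1.34 (log2 change -1.34 ± 0.22, adjusted p = 6.69e-05). Fresh marrow, at 6.43 to 6.54, was lower than healthy spleen (log2 change -1.39 ± 0.22, adjusted p = 1.30e-05). Clec10a rose in the GM-CSF+IL-6 culture, at 7.58 to 7.98, by 1.29 ± 0.22 (adjusted p = 4.45e-05). With G-CSF it was 6.12 to 6.78, which differed from marrow by 0.01. The culture pair differed by 1.28 ± 0.22 (adjusted p = 0.0017), and by 0.99 with the narrow arrays alone and 1.86 with the wide ones. When only the 6 culture arrays were fitted, the same difference had adjusted p = 0.668, and with array weights it was 0.92.

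Cd209a, a relative of human DC-SIGN, was highest in healthy spleen and lower in every tumor-bearing group. Healthy BALB/c spleen read 10.03, 10.18 and 10.61, and healthy C57BL/6 spleen 9.91, 10.02 and 10.11. Spleen of C26-GM bearing mice read 8.80, 8.85 and 9.50, and C26-GM tumors 5.27, 5.63 and 6.46. No array of a tumor-bearing group reached the healthy range of its strain. Cd209a fell by 1.23 in C26-GM spleen (log2 change -1.23 ± 0.30, adjusted p = 0.00485), by 1.10 without the third C26-GM arrays, and by 0.98 with array weights, under 2-fold. In C26-GM tumors it fell by 4.49 (log2 change -4.49 ± 0.30, 22.4-fold, adjusted p = 4.86e-12).

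The 4T1 arrays read 7.12 to 7.56 and the EL-4 arrays 7.09 to 8.17. MCA203 tumors, at 5.86 to 6.39, were lower. Cd209a fell by 3.01 in 4T1 (adjusted p = 8.83e-09), by 2.49 in EL-4 (adjusted p = 3.26e-07) and by 3.91 in MCA203 (adjusted p = 8.60e-11), each with SE 0.30. Of its 9 neighbouring pairs 3 were apart. They were healthy C57BL/6 over C26-GM spleen (0.96), C26-GM spleen over EL-4 (1.53) and GM-CSF+IL-6 culture over MCA203 (0.79). In these pairs 18.1%, 28.8% and 38% of all genes had adjusted p below 0.05. Marrow, at 5.63 to 6.47, was lower than healthy spleen (log2 change -4.27 ± 0.30, adjusted p = 1.69e-11). The IL-6 culture, at 6.56 to 7.51, differed from marrow by 0.89 (adjusted p = 0.0212), under 2-fold, and by 1.24 with the array set term. It passed at 1.05, 1.03 and 1.12 without the first IL-6, the second IL-6 or the third marrow array. With G-CSF the difference was 0.05. Cd209a means lay at percentiles 51.3 (C26-GM tumor), 53.7 (MCA203), 53.8 (marrow) and 53.4 (GM-CSF+G-CSF) of all genes. Whether background limits the differences of these groups was not tested.

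The Cd209a promoter, at chr8:3748935-3749234 on the minus strand of the same RefSeq build, is shown as the member with the widest loss in tumors. None of the 5 motifs was found in it, so no letter is in capitals.

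Cd209a: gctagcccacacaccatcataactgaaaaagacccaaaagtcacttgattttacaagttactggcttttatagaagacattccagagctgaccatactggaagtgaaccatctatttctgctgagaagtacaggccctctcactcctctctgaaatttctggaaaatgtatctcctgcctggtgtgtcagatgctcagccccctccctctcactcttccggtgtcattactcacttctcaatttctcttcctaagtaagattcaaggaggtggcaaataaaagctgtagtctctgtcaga

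**Figure D3:**
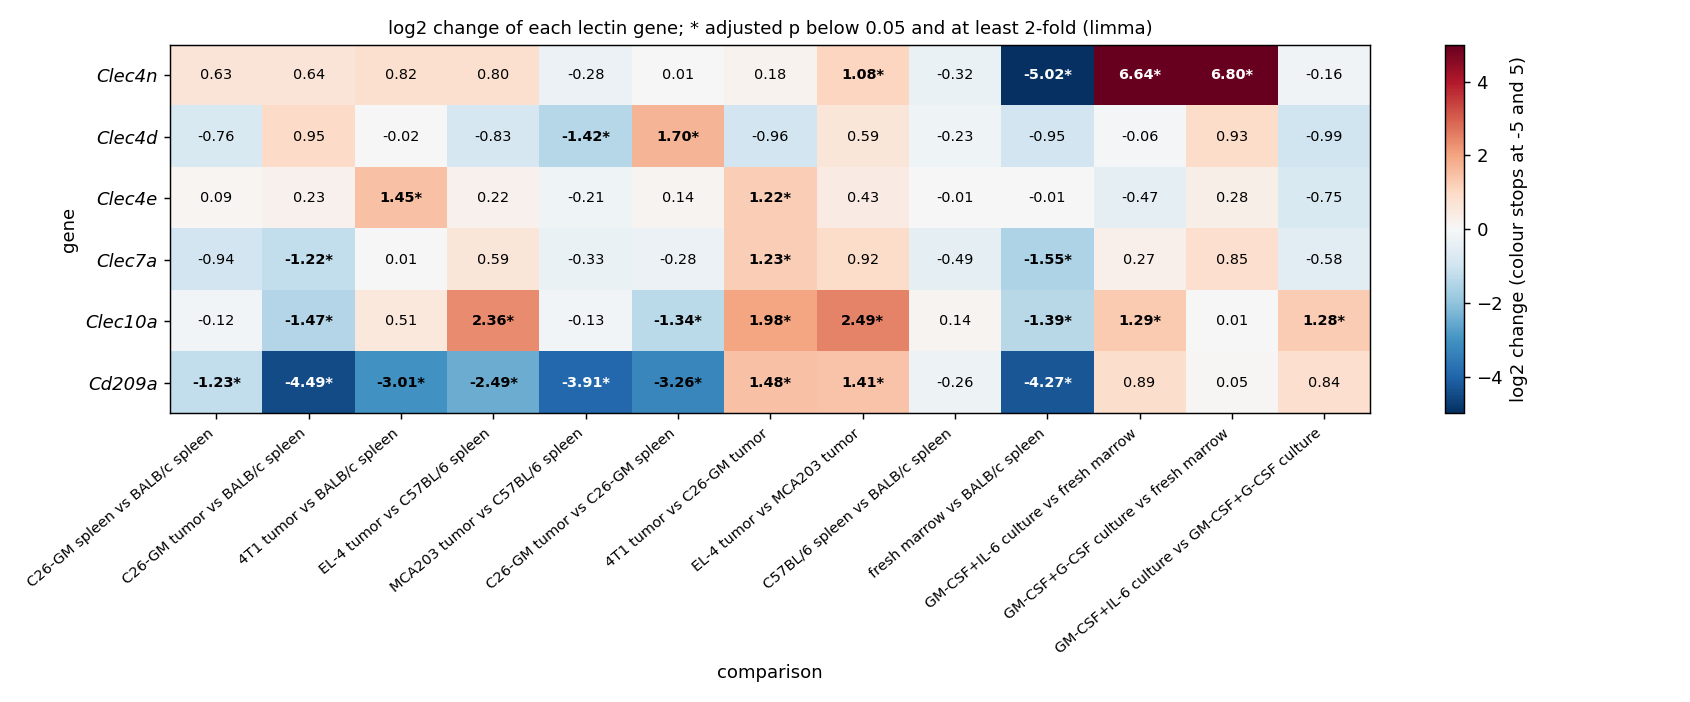
Log2 changes of the 6 lectin genes (rows) in the 13 comparisons (columns), with colour for the size and direction and a star where a gene was called. Cd209a fell in all 5 tumor-bearing groups, and Clec4n rose by 6.64 and 6.80 in the cultures.

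The members called were then counted in each comparison. In C26-GM spleen 1 of the 6 fell and 0 rose, where 6.14% of all genes were called (2.32% up, 3.83% down), and the median of the 6 was -0.44 against 0.09 over all genes. In C26-GM tumors 3 fell, Cd209a, Clec10a and Clec7a (11.4% of all genes called, 4.26% up and 7.13% down, medians -0.50 and 0.11). In 4T1 tumors Clec4e rose and Cd209a fell (12.3%, with 6.83% up and 5.44% down, medians 0.26 and -0.01). In EL-4 tumors Clec10a rose and Cd209a fell (10.8%, with 6.42% up and 4.4% down, medians 0.40 and 0.02). In MCA203 tumors Clec4d and Cd209a fell (10.4%, with 5.01% up and 5.42% down, medians -0.30 and 0.14). The 3 BALB/c comparisons share the healthy BALB/c arrays and the 2 C57BL/6 ones the healthy C57BL/6 arrays.

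Markers of other cells moved in the same comparisons, and their part in these results was not tested. Of 8 dendritic cell markers 5 fell in C26-GM spleen, 6 in C26-GM tumor, 6 in 4T1, 5 in EL-4 and 5 in MCA203, where Xcr1 rose. Their mean level was 8.27 to 8.65 in healthy BALB/c spleen, 6.24 to 6.56 in C26-GM spleen, 5.11 to 5.42 in C26-GM tumor and 6.11 to 6.50 in 4T1. It was 8.58 to 8.82 in healthy C57BL/6 spleen, 7.28 to 7.56 in EL-4 and 7.17 to 7.39 in MCA203. Of 9 macrophage and monocyte markers 3 fell in C26-GM spleen, 6 fell in C26-GM tumors (mean level 9.20 to 9.38, against 11.19 to 11.28), 1 rose in 4T1, 2 rose and 1 fell in EL-4, and 4 rose in MCA203. All 5 T cell markers rose in both C57BL/6 tumors, whereas 2 fell in C26-GM spleen, 3 in C26-GM tumor and 3 in 4T1. Of 9 late granule genes of granulocytes, 1 rose in C26-GM spleen, 1 rose and 3 fell in C26-GM tumor, and 5 fell in 4T1, 8 in EL-4 and 9 in MCA203. Of 5 epithelial markers 1 rose in C26-GM spleen, 1 in C26-GM tumor, 4 in 4T1, 4 in EL-4 and 3 in MCA203, and of 5 fibroblast markers 0, 3, 4, 4 and 4. All 5 NK cell markers fell in each BALB/c group, whereas 3 rose and 1 fell in EL-4 and 1 rose in MCA203. In all 5 tumor-bearing groups 3 of 4 B cell markers fell. Eosinophil markers fell in 4, 5, 4, 3 and 5 of 5 cases in these groups. Some of these counts changed under housekeeping centring. In EL-4 C1qb (0.80), Fcgr1 (0.82), Gzma (0.90) and Eomes (0.80) were no longer called, and Csf1r was called at -1.15. In MCA203 C1qc (0.99) and Col1a1 (0.82) lost their calls. Adgre1 in 4T1 (-1.05) and C1qa in C26-GM spleen (-1.10) were called as falls. Falls were also added among dendritic cell, T cell, late granule and eosinophil markers.

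The tumors of 1 strain were also compared with each other. In 4T1 against C26-GM tumors 4 of the 6 were higher, Clec10a by 1.98, Cd209a by 1.48 (adjusted p = 0.000354), Clec7a by 1.23 and Clec4e by 1.22, where 12.9% of all genes were called (8.95% up, 3.9% down). Clec4d went the other way with -0.96, under 2-fold, at -1.15 without the second 4T1 array and -1.13 without the second C26-GM tumor array, and -1.25 under housekeeping centring. Of the macrophage and monocyte markers 7 of 9 rose in the same comparison. Under housekeeping centring Ccr2 (0.74) and Fcgr1 (0.85) were no longer called there. In EL-4 against MCA203 tumors 3 rose, Clec10a, Cd209a (1.41, adjusted p = 0.00151) and Clec4n, where 5.28% of all genes were called (3.88% up, 1.4% down). The macrophage and monocyte markers gave 0 rises and 2 falls there. In C26-GM tumor against C26-GM spleen Clec4d rose, while Cd209a (-3.26, adjusted p = 8.70e-09) and Clec10a fell, where 6.16% of genes were called (2.79% up, 3.36% down). There 1 macrophage and monocyte marker rose and 6 fell, with mean levels of 9.20 to 9.38 in the tumor and 10.08 to 10.39 in the spleen. Of the dendritic cell markers 2 fell, and of the late granule genes 1 rose and 3 fell (mean level 10.61 to 11.36, against 11.87 to 13.07).

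Healthy spleens of the 2 strains gave no call among the 6 with limma, where 1.4% of all genes were called (0.654% up, 0.742% down). At an unadjusted p below 0.05 the count was 1 of 6, Clec7a, at -0.49 in C57BL/6 (adjusted p = 0.197). The share of all genes at that unadjusted threshold is not given here. The tumor effects, averaged over both tumors of a strain, were then set against each other in 1 contrast, in which 4.93% of all genes were called (2.83% up, 2.11% down). Clec10a was higher in C57BL/6 (difference 1.59 ± 0.27, adjusted p = 0.000175) and Clec4d lower (-1.60 ± 0.31, adjusted p = 0.000882). Clec7a gave 0.73 (adjusted p = 0.0281), under 2-fold, and 0.54 under housekeeping centring (adjusted p = 0.158). Clec4e gave -0.84 (adjusted p = 0.0966), Clec4n -0.46 and Cd209a 0.55 (adjusted p = 0.528). The Clec4e value was -1.03 under housekeeping centring (adjusted p = 0.0113) and -0.86 without the third C26-GM arrays (adjusted p = 0.0422). Its second probe set gave -0.18 ± 0.42 with the deposited scaling and all arrays. Strain and tumor line cannot be told apart in this contrast, since no tumor was grown in both strains. Within C57BL/6 the tumor values of Clec10a were 2.36 and -0.13, a difference called above. The late granule genes were lower in this contrast in 9 of 9 cases, and 5 of 8 dendritic cell markers were higher.

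Fresh marrow against healthy BALB/c spleen gave 4 falls, Clec4n, Cd209a, Clec7a and Clec10a, where 13.3% of all genes were called (5.76% up, 7.49% down), with a median of -1.47 for the 6 and 0.09 over all genes. Clec4d gave -0.95 (adjusted p = 0.00459), -1.07 without the third marrow array and -1.11 under housekeeping centring, and Clec4e -0.01. All 9 macrophage and monocyte markers and 7 of 8 dendritic cell markers fell in the same comparison. Their mean levels were 8.85 to 9.10 and 4.98 to 5.22 in marrow. Of the late granule genes 6 of 9 rose. In the GM-CSF+IL-6 culture 2 of the 6 rose, Clec4n and Clec10a (14.1% of genes called, 5% up and 9.07% down). In the GM-CSF+G-CSF culture Clec4n alone rose (13.9%, with 4.48% up and 9.37% down). Clec10a alone was called between the cultures, higher with IL-6 (0.654% of genes, 0.456% up and 0.198% down). The 2 culture comparisons share the marrow arrays. Dendritic cell markers rose in 5 of 8 cases with IL-6 and 3 with G-CSF, and macrophage and monocyte markers in 2 and 3 of 9, with 3 and 4 falls.

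Beyond the 6 genes, 22 of 26 other C-type lectin receptors of a list were measured. Mgl2, the partner gene of Clec10a next to it on chromosome 11, rose in all 5 tumor-bearing groups. It read 4.77 to 5.24 in healthy BALB/c spleen and 4.25 to 4.77 in healthy C57BL/6 spleen. The rises were 2.54 in C26-GM spleen, 1.79 in C26-GM tumor, 3.41 in 4T1, 3.24 in EL-4 and 2.12 in MCA203, each with SE 0.33. It also rose by 4.06 with IL-6 and by 1.87 with G-CSF. Clec10a and Mgl2 are close in sequence, and whether their probe sets pick up each other's RNA was not tested. In C26-GM tumors, where Clec10a fell, Mgl2 read 6.30 to 7.08, above all 3 healthy arrays.

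Some other genes of the Cd209 family rose in groups where Cd209a fell. Cd209f and Cd209g rose in EL-4 tumors by 4.62 ± 0.29 and 4.61 ± 0.30 (adjusted p = 2.56e-12 and 6.59e-12). Cd209f read 8.79, 10.43 and 9.89 there, against 4.99 to 5.26 in healthy C57BL/6 spleen. Cd209b and Cd209d rose by 1.86 and 1.72 in the same tumors. In 4T1 tumors Cd209g rose by 2.76 and Cd209e by 1.58. Cd209e, the neighbour of Cd209a on chromosome 8, rose by 3.20 ± 0.32 in C26-GM spleen at 6.12 to 7.67, against 3.31 to 4.04 in healthy spleen.

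**Figure D4:**
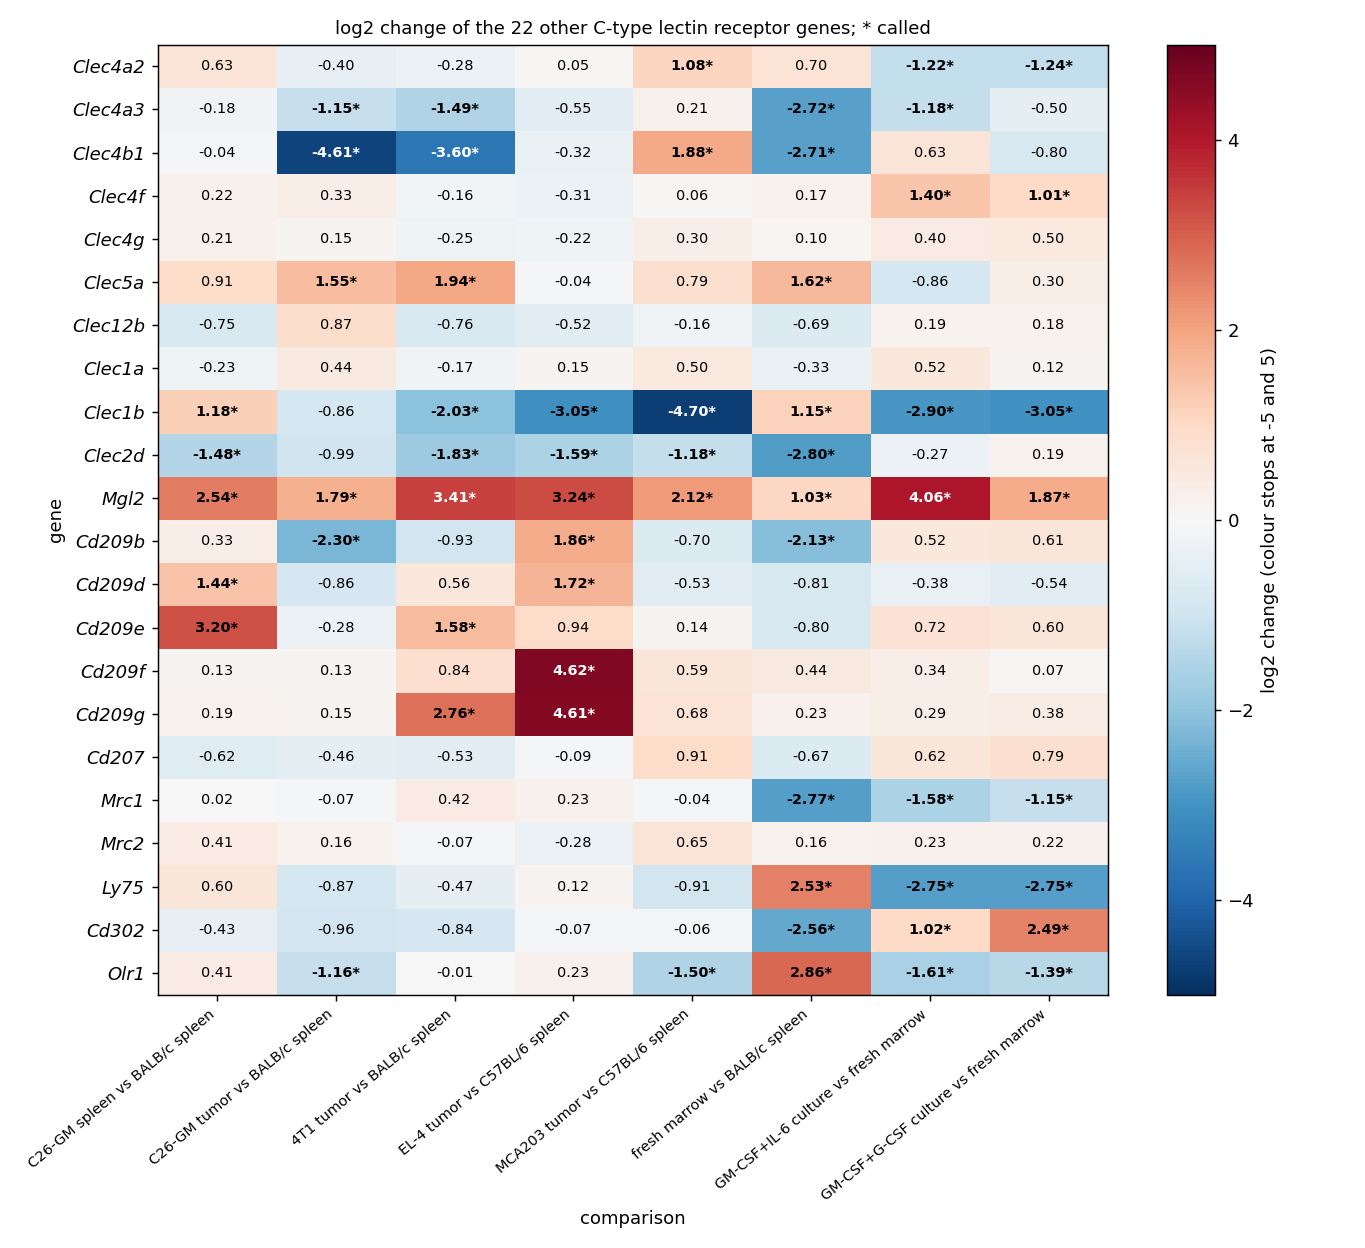
Log2 changes of the 22 other measured C-type lectin receptors (rows) in 8 comparisons with healthy spleen or fresh marrow (columns), with a star where a gene was called. Mgl2 rose in every tumor-bearing group and in both cultures, and Cd209f and Cd209g rose most in EL-4 tumors.

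Other lectins of the Clec4 cluster and beyond went in both directions. Clec4b1 fell by 4.61 in C26-GM tumors and by 3.60 in 4T1 tumors, and rose by 1.88 in MCA203 tumors. Clec5a, a receptor that signals through Tyrobp, rose in C26-GM tumors (1.55) and 4T1 tumors (1.94). Clec1b, the podoplanin receptor of platelets, fell by 4.70 in MCA203 tumors, by 3.05 in EL-4 and by 2.03 in 4T1. Clec2d fell in 4 groups, by 1.48 in C26-GM spleen, 1.83 in 4T1, 1.59 in EL-4 and 1.18 in MCA203. In all, 4 rose and 1 fell of the 22 in C26-GM spleen, 2 and 4 in C26-GM tumor, 4 and 4 in 4T1, 5 and 2 in EL-4 and 3 and 3 in MCA203. Marrow gave 5 and 6, and the cultures 3 and 6 with IL-6 and 3 and 5 with G-CSF.

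The genes through which Clec4n, Clec4d, Clec4e and Clec7a signal were then counted. Of 10 measured adaptors and kinases, 0 were called in C26-GM spleen with limma, 1 in C26-GM tumor, 2 in 4T1, 1 in EL-4 and 1 in MCA203. Syk, the shared kinase, fell by 1.23 in 4T1 and by 1.44 in MCA203 (SE 0.20), while Fcer1g and Tyrobp were called in no comparison. Src rose by 1.03 in 4T1, or 0.75 under housekeeping centring, and by 1.63 in EL-4. Plcg2, a phospholipase downstream of Syk, fell by 1.04 in C26-GM tumor. In culture Vav1 fell by 1.37 with IL-6, and Vav3 by 1.53 and 2.01.

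Of 8 measured genes of the CARD9 complex and its transcription factors, 3, 3, 2, 2 and 2 fell and 0 rose in the tumor-bearing groups in the same order. Relb, an NF-kB subunit prominent in dendritic cells, fell in all 5 (log2 changes -1.93, -1.89, -1.41, -1.13 and -2.55, SE 0.25) and rose in both cultures (by 1.64 with G-CSF). Nfatc1 fell in the 3 BALB/c groups and EL-4 (by 1.01, 1.48, 1.28 and 1.36). Malt1, the protease of the complex, fell by 1.48 in C26-GM spleen, 1.11 in C26-GM tumor and 1.56 in MCA203. Of 8 brakes on this signalling, Tnfaip3 rose in C26-GM tumor (1.06), 4T1 (1.98) and EL-4 (1.44), and Ptpn6 fell in 4T1 (by 1.10) and Cbl in MCA203 (by 1.07).

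Of 8 cytokines that these receptors are known to induce, 4 rose in C26-GM tumor, 5 in 4T1, 3 in EL-4 and 4 in MCA203, with 0 falls. Cxcl2, which draws neutrophils, rose by 5.13, 5.12, 5.61 and 4.76 (SE 0.37), and Il6 by 4.38, 5.18 and 4.01 in the first 3 (SE 0.35). Il10 rose most in EL-4 (3.14 ± 0.24) and Il23a most in 4T1 (2.86 ± 0.15). In C26-GM spleen Il1b fell by 1.85, and Cxcl2 rose by 1.20, a call lost at 1.06 under housekeeping centring. Other counts depended on this scaling too. Tnf (0.73) and Cxcl1 (0.74) were no longer called in MCA203. Falls were called for Il1b in EL-4 (-1.32) and for Il12b in C26-GM spleen (-1.07).

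The genes whose 10 group means followed each member most closely were named by their Pearson correlation, as a description. They were Zswim7, Mmp12 and Zmat3 for Clec4n (0.93, 0.92 and 0.92), and Fbxo28, Zfp612 and Arg2 for Clec4d (0.92, 0.87 and 0.86). For Clec4e they were Ccbe1, Tmprss11e and Ptgfrn (0.92 each), and for Clec7a Fam210b, Gdpd1 and Zfp532 (0.92, 0.92 and 0.91). Ehhadh, Gstp1 and Golga4 followed Clec10a (0.97, 0.93 and 0.92), and Arap2, Zfp770 and Ppp1r14a followed Cd209a (0.97, 0.97 and 0.95). Over the 30 single arrays Mmp12, the macrophage elastase, kept 0.92 with Clec4n, and Zfp612 had 0.45 with Clec4d.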

How the data were processed

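The authors deposited 1 table of log2 RMA expression values for 45101 probe sets of the Affymetrix MOE430 2.0 array on 30 arrays, per the submitters' processing notes and the values. The version of RMA, the normalization batch and the scan dates are not given in the sources used here. The values were used as they stand. Of the probe sets, 34958 carried 1 symbol, 932 several and 9211 none. Taking the probe set with the highest mean for each gene left 18194 genes, of which 9012 had more than 1. All 30 arrays entered 1 linear model in limma 3.58.1 (R 4.3.3), without a block, with eBayes, and p-values were adjusted by Benjamini-Hochberg separately for each comparison. Calls needed adjusted p below 0.05 and at least a 2-fold change. The script was tested on simulated data. Precision is limited by 3 arrays a group. The members and lists were chosen with earlier results of these data known.

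Named are the 6 lectins with their other probe sets, for each the 3 genes with the most similar group means, and of each list up to 4 called genes with the largest changes in a comparison, besides list genes at issue in the text. Clec4a1, Clec4b2, Clec9a, Clec12a, Lyn, Card9 and Nfkb1 were not analysed here. Alternatives were 2 scalings, the compared groups alone, array weights, a filter on low genes (40th percentile), other probe set rules, another variance prior, a replicate block, no minimum fold change, arrays left out and, added after seeing the data, the 3 on culture array sets.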

Additional observations from a re-analysis of the deposited data

Results flagged for a closer look

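In 3 of the 6 lectins the mean tumor effect differed between the C57BL/6 models (EL-4 and MCA203) and the BALB/c models (C26-GM and 4T1). The test was of that difference in limma, at adjusted p below 0.05. The share of all genes at adjusted p alone is not given here. Of the 3 lectins, 2 also reached 2-fold, Clec4d and Clec10a, where 4.93% of all genes were called. Clec4d was lower in the C57BL/6 models, with a difference of -1.60 (adjusted p = 0.000882). Its 4 tumor effects were -0.83 in EL-4, -1.42 in MCA203, 0.95 in C26-GM and -0.02 in 4T1. Clec10a was higher in the C57BL/6 models by 1.59 (adjusted p = 0.000175), with effects of 2.36, -0.13, -1.47 and 0.51 in the same order. Clec7a gave 0.73 (adjusted p = 0.0281), with effects of 0.59, -0.33, -1.22 and 0.01, but under housekeeping centring it gave 0.54 (adjusted p = 0.158), with an EL-4 effect of 0.22 (adjusted p = 0.334). Strain, tumor line and, for C26-GM, sex cannot be told apart.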

How the results depend on the processing

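The number of the 6 lectins called stayed within 1.5 times in 149 of 163 combinations of a comparison with an alternative other than leaving out single arrays. No called member changed sign in any of them, while 31 values that were not called did. Some alternatives leave the log2 changes as they are, so no sign could change there. These were the compared groups alone, another variance prior, a replicate block and no minimum fold change. For C26-GM spleen the count went from 1 to 2 under housekeeping centring, 0 with array weights and 4 with no minimum fold change. For GM-CSF+G-CSF culture it went from 1 to 2 under a repeated quantile normalisation, with a term for the array set and with the wide arrays alone, and to 3 with no minimum fold change. For the culture pair it went from 1 to 0 with only the compared groups and with array weights, and to 2 with no minimum fold change. Over all genes the culture pair gave 119 calls from all 30 arrays and 2 with only the compared groups. With no minimum fold change the count went from 3 to 5 in C26-GM tumor and from 2 to 5 in EL-4. By that rule 14.4% of all genes passed for C26-GM spleen and 27.6% for C26-GM tumor. For GM-CSF+G-CSF culture 39.7% passed and for the culture pair 1.24%, and the share for EL-4 is not given here. Without _s_at and _x_at probe sets, which leaves 5 members and no Clec4d, the count went from 2 to 1 in MCA203 and in the strain difference. Leaving out single arrays gave counts of 1 to 2 for C26-GM spleen and for GM-CSF+G-CSF culture, and of 1 to 3 for the culture pair.

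Centring on 9 housekeeping genes moved the median of all genes by -0.37 in EL-4, -0.30 in MCA203 and -0.28 in 4T1 against healthy spleen, by -0.28 between 4T1 and C26-GM tumors, by -0.19 in the strain difference, and by -0.16 in marrow, -0.14 in C26-GM spleen and 0.14 between C26-GM tumor and spleen. The replicate numbers showed no common pairing of the arrays over all groups. The mean correlation of deviations was -0.01 over 135 pairs of equal number (from -0.85 to 0.79). Pairing between particular groups was not tested. A replicate block changed no call of a member. The strain difference of Clec4e was called at -1.03 under housekeeping centring, and that of Clec7a went from 0.73 to 0.54 (adjusted p = 0.158). Calls of single list genes also changed with that centring. Ngp in marrow against spleen went from 1.06 to 0.90, and Itgax in the strain difference from 1.15 to 0.95. Fits without single arrays that leave 2 in a group assume that these vary like the other groups. The cause of these changes was not tested, and saturation and background could not be read from the RMA values.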
